A study of Mus musculus with 20 samples.

Results

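Wax-stripped epidermis was compared with epidermis from unaffected areas of recovery skin, 4 arrays against 4, out of 20 arrays in the series. The arrays were chosen by their labels. The wax-stripped group held 2 Grhl3 WT and 2 Grhl3 cKO mice whose dorsal skin had been injured with wax tape and taken on day 4. The unaffected recovery group held 2 Grhl3 WT and 2 Grhl3 cKO mice recovering from imiquimod cream, taken on day 8. All 8 arrays are labelled C57B6, male and dorsal epidermis, and every title, those of WT mice included, names Krt14cre. Krt14cre is Cre recombinase under the keratin 14 promoter, which is active in keratinocytes and not in the immune or pigment cells that a dispase-separated epidermis also holds. Replicates are labelled biological. Wax, day and experiment differ together between the groups, so they cannot be told apart, and the unaffected areas came from animals that had received imiquimod cream. Epidermis from the imiquimod experiment on day 4, labelled female (4 injured and 4 unaffected arrays, 2 of each genotype), served as a second set of arrays.

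Wax stripping tears the cornified outer layers off the skin and so breaks the water barrier. Epidermis is known to answer such a breach with secretion of lipids, proliferation of basal keratinocytes, stress keratins in the suprabasal layers and alarm signals that draw in immune cells. Imiquimod acts through Toll-like receptors on immune cells and produces an inflamed, thickened epidermis used as a model of psoriasis. Grhl3 is a transcription factor of keratinocyte differentiation and barrier formation. None of these genes can be read here, for the reason given next, and the results are those of probe sets, the groups of probes that an array summarises into 1 value.

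The platform's table gives 1 gene symbol for 21789 of the 35556 probe-set IDs, but the deposited levels go against it. By rank of mean signal, 205 IDs with a ribosomal protein symbol, a class that all cells transcribe strongly, centred on percentile 54.6. The 1035 IDs with an olfactory receptor symbol, a class of which most members are not expected in skin, centred on percentile 52.2. IDs that share a symbol did not move together either: the median r of 8989 such pairs was 0.0748, and that of randomly drawn pairs 0.0209. No gene is therefore named, neither the Grhl3 transcript nor the markers of epidermal cell types could be checked, and IDs are printed for only 2 higher and 2 lower probe sets, as labels of places in the table. The median intensity of the 4 wax-stripped arrays lay between 183 and 188 and that of the 4 unaffected recovery arrays between 196 and 200, so the groups did not overlap in it. The number of arrays limits the precision. Replicates of a group correlated at 0.985 to 0.992 over 26310 probe sets, and wax-stripped against unaffected recovery arrays at 0.939 to 0.964. The 4 injured recovery arrays count in the filter on mean signal, the removal of repeated probe sets and the symbol check above, which use all 20 arrays. Of the fits, only alternative ones include them. By over 3 on the log2 scale, 5 probe sets part the arrays labelled female from the others labelled male. In all 5, the injured recovery arrays sat with the female side against their label.

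The first question was how far the epidermis differed 4 days after wax stripping from unaffected recovery skin. With genotype as a covariate, 12414 of 26310 probe sets (47.2%) passed the test (limma, Benjamini-Hochberg adjusted p under 0.05). Of these, 5008 (19%) were higher and 7406 (28.1%) lower after wax. The bulk of them differed little, and the direction of the balance turned with size: below 1.5-fold there were more lower than higher probe sets, and from 1.5-fold upward more higher than lower ones. At least 2-fold, 443 were higher (1.68%) and 209 lower (0.794%). At least 8-fold, 26 were higher and 4 lower. In every alternative run the probe sets higher by at least 2-fold outnumbered the lower ones. The balance of all calls was less firm, since the filter at the 50th percentile of signal turned it to 4607 higher and 4380 lower, and quantile normalization, which gives all arrays the same distribution, brought it to 5176 higher and 5618 lower. The median of all probe sets was -0.08 on the log2 scale, and fewer cells of a type cannot be told apart from less RNA per cell in such samples.

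**Figure D1:**
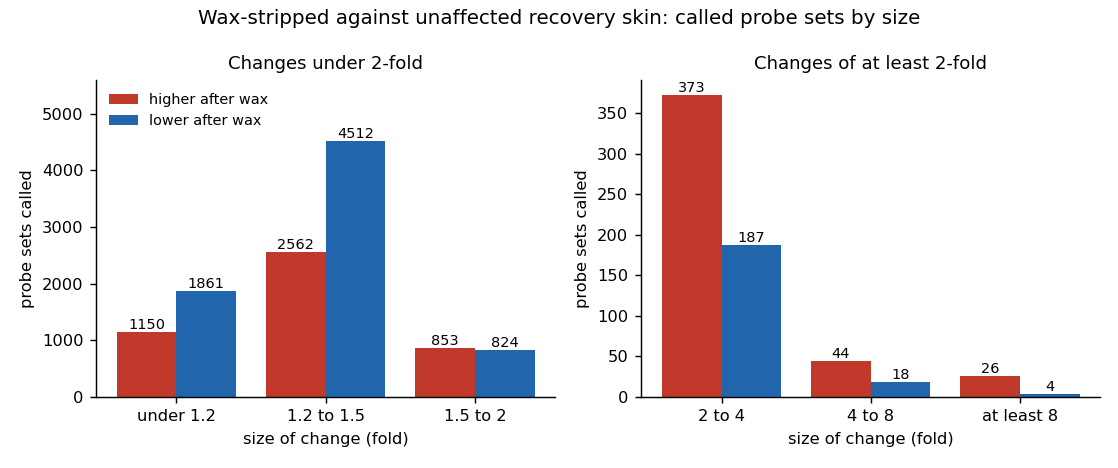
Number of probe sets called by limma as higher (red) or lower (blue) in the 4 wax-stripped than in the 4 unaffected recovery arrays, by size of change; each panel has its own axis starting at 0. Lower probe sets prevail between 1.2- and 1.5-fold (4512 against 2562), and higher ones prevail from 2-fold on (373 against 187 between 2- and 4-fold).

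The probe sets that were higher after wax started dim, and those that were lower started bright. The 443 higher ones had a median intensity of 200 in unaffected recovery skin and 615 after wax, against 310 and 306 for all probe sets tested. Of the 443, 38 lay under 64 units in unaffected recovery skin (8.58%, against 0.293% of all tested) and 0 did so after wax, when 145 reached 1000 units or more, up from 38. The 209 lower ones had a median of 737 in unaffected recovery skin and 287 after wax, and 80 of them (38.3%, against 17.6% of all tested) lay at or above 1000 units in unaffected skin. After wax 11 of the 209 were still at or above 1000 units, and 6 had dropped under 64. Since these lists were chosen for their difference, part of this contrast in starting level follows from the choice. The filter on mean signal over all 20 arrays adds to it. A probe set dim in unaffected recovery skin tended to pass only where other arrays were brighter, and just 77 of all tested lay under 64 units there. The share of 8.58% is therefore no result about the raised probe sets. The 4 wax arrays all lay above the 4 unaffected recovery arrays in 422 of the 443 (18.3% of all tested), and all below them in 194 of the 209 (24.6% of all tested). The lists were called on these same arrays, so most of this separation follows from the choice and is no further support.

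The largest rise was in probe set 10434128. It read 2890 and 2850 intensity units in wax-stripped WT skin and 7010 and 5910 in wax-stripped cKO skin. In unaffected recovery skin it read 47.2 and 88.4 in WT and 39.8 and 132 in cKO mice. All 4 wax arrays stood far above all 4 others, the cKO pair above the WT pair. The group means were 4660 ± 2100 and 76.9 ± 43 (SD, n = 4 each), a log2 difference of 5.65 ± 0.33 (SE; limma adjusted p = 2.29e-05) or 50.2-fold. Unaffected skin of the imiquimod experiment was as low, at 95.2 ± 64, and injured imiquimod skin reached 9030 ± 110 (SD, n = 4 each). The next, 10604165, had the same profile: 2610 and 2440 in wax-stripped WT skin, 5920 and 5400 in cKO skin, and between 31.4 and 148 in the 4 unaffected recovery arrays. Its log2 difference was 5.55 ± 0.36 (SE; limma adjusted p = 3.5e-05). For both, the larger value in cKO than in WT mice did not pass the test of the difference between genotypes (1 ± 0.6 and 0.91 ± 0.7 on the log2 scale, SE).

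Among the falls, 10382927 went furthest. It read 94.8 and 145 in wax-stripped WT skin and 86.4 and 106 in cKO skin, and 2180, 1580, 1550 and 1590 in unaffected recovery skin. The genotypes did not part, and no array of one group came near the other. The log2 difference was -3.82 ± 0.14 (SE; limma adjusted p = 1.19e-05). Unaffected imiquimod skin kept the high level (1560 ± 140), while injured imiquimod skin, at 371 ± 170 (SD, n = 4 each), lay above wax-stripped skin. Tested directly, the wax difference minus that with imiquimod was -1.69 ± 0.33 on the log2 scale (SE; limma adjusted p = 0.00413), so the fall after wax was the larger one. The second, 10510859, read 128, 205, 151 and 127 after wax and 2320, 1490, 2730 and 1730 in unaffected recovery skin, a log2 difference of -3.61 ± 0.21 (SE; limma adjusted p = 2.38e-05). Its level in the other unaffected skin was not the same: the 4 unaffected imiquimod arrays read 306 to 840, and against them the log2 difference was -1.68 (limma adjusted p = 0.00555). Both falls kept their direction, but the size of the second rested on which unaffected skin was used.

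**Figure D2:**
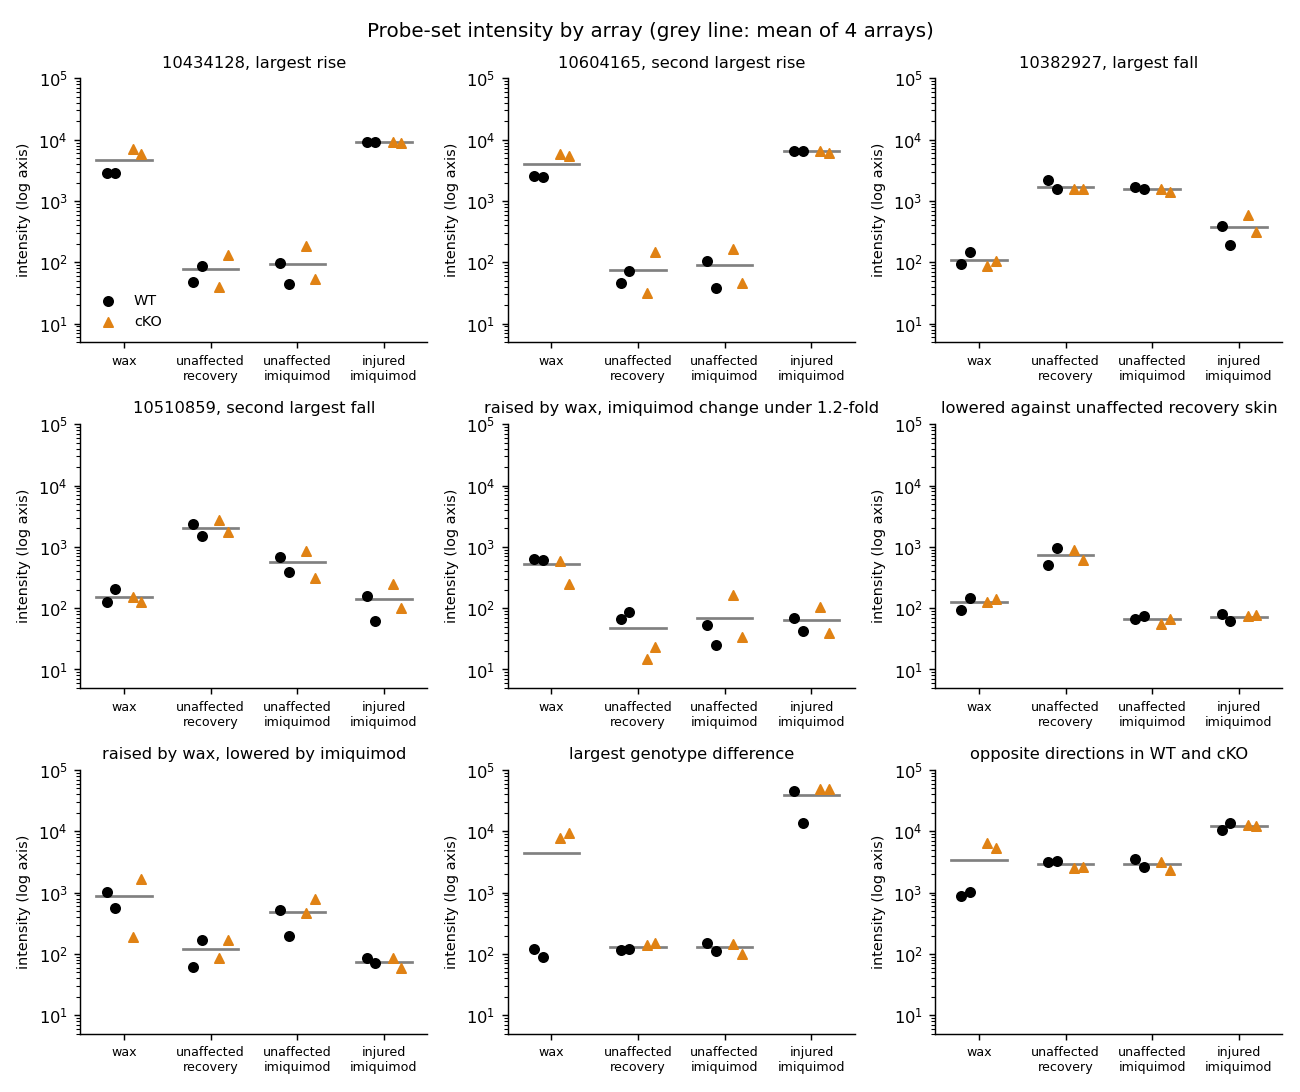
Intensity of 9 probe sets on a log axis in wax-stripped, unaffected recovery, unaffected imiquimod and injured imiquimod skin; circles are WT and triangles cKO arrays, and the grey line is the mean of 4 arrays. In 10434128 the wax arrays sit between 2850 and 7010 and the unaffected recovery arrays between 39.8 and 132; the last 2 panels show probe sets in which wax-stripped WT and cKO arrays part.

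No array of the series is labelled as untouched skin from the wax mice. The same probe sets were therefore read against unaffected imiquimod skin, which matches wax in day but not in labelled sex. Both unaffected skins differed from each other in 5307 probe sets (20.2%), 107 of them (0.407%) higher and 142 (0.54%) lower by at least 2-fold in recovery skin. That count became 1981 without unaffected recovery cKO replicate 1, 2811 without unaffected recovery WT replicate 1 and 3275 without unaffected recovery cKO replicate 2. Against unaffected imiquimod skin, wax-stripped skin differed in 7071 probe sets, fewer than the 12414 above, with 428 higher and 313 lower by at least 2-fold. The 443 probe sets raised after wax had a median log2 difference of 1.34 against unaffected recovery skin and of 1.19 against unaffected imiquimod skin. In 372 of them (84%, against 15.4% of all tested) the 4 wax arrays lay above all 4 unaffected imiquimod arrays. The 209 lowered ones had medians of -1.28 and -1.12, and in 166 (79.4%, against 15.4% of all tested) the wax arrays lay below all 4 unaffected imiquimod arrays. The wax arrays are the same in both readings, so the second is no independent support.

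A minority did change sides with the control. Against unaffected imiquimod skin, 4 of the 443 had the opposite sign, and 19 of the 209. One of these 19 read 92, 145, 127 and 139 in wax-stripped skin and 498 to 945 in unaffected recovery skin, a log2 difference of -2.37 ± 0.22 (SE; limma adjusted p = 0.000138). In unaffected imiquimod skin it read 55.7 to 75.9, and in injured imiquimod skin 60.9 to 80. Unaffected recovery skin thus stood alone at the high level, and against unaffected imiquimod skin the log2 difference was 0.78 (limma adjusted p = 0.005). It belongs to a class of 4 probe sets that were lower after wax by at least 2-fold, moved by under 1.2-fold with imiquimod, and passed the direct test of wax against imiquimod, and 3 of these 4 turned sign with the control.

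Log2 differences were then read by genotype, from 2 against 2 arrays that share none. The tests of both genotypes came from a single fit with a common residual variance. Passing in WT and passing in cKO mice are therefore not independent, and counts that passed in both may be raised by this. After wax, WT skin had 2574 higher (9.78%) and 2911 lower probe sets (11.1%), and cKO skin had 2907 (11%) and 3127 (11.9%). Quantile normalization turned the balance in both, to 2575 higher and 2096 lower in WT and 3085 and 2764 in cKO skin. The filter at the 50th percentile of signal did so too (2640 and 2014 in WT, 2980 and 2557 in cKO skin). So did a fit over 16 arrays, without the injured recovery ones (2495 and 2372, 2852 and 2653). Other eBayes settings turned it in WT (2792 and 2756), and all 20 arrays in cKO skin (3187 and 3122). The WT total of 5485 became 2093 without wax-stripped WT replicate 1, 953 without replicate 2, 1540 without unaffected WT replicate 1 and 2713 without replicate 2. The cKO total of 6034 became 3342 without wax-stripped cKO replicate 1, 2962 without replicate 2, 3774 without unaffected cKO replicate 1 and 3971 without replicate 2. Strong differences were shared by the genotypes. Of the 371 probe sets higher by at least 2-fold in WT skin (1.41% of all tested), 350 also passed, with the same sign, in cKO mice and 306 (82.5%, against 1.9% of all tested) did so at 2-fold or more. Of the 174 lower ones (0.661% of all tested), 159 passed in the same direction, 137 (78.7%, against 1.02%) at 2-fold or more, and 2 passed in the opposite direction. Across all probe sets, which are not independent replicates and share the experiment, the log2 differences of the genotypes correlated at r = 0.867 (Spearman rho = 0.835).

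The direct test of the difference between the genotypes' wax responses called 7 probe sets (0.0266%), all larger in cKO mice, and 874 (3.32%) at an unadjusted p under 0.05. In 4 of the 7, wax-stripped WT skin did not pass the test and cKO skin rose. The largest read 122 and 88.2 in wax-stripped WT skin, 7860 and 9430 in wax-stripped cKO skin, and 114 to 149 in the 4 unaffected recovery arrays. Wax-stripped WT skin was thus at the unaffected level and cKO skin far above it, a log2 difference of responses of 5.9 ± 0.21 (SE; limma adjusted p = 0.000206). Injured imiquimod skin of both genotypes was higher still, at 13800 to 49800. Of these 4, the largest 2 were called in 8 of 8 fits that leave out 1 array, the next in 4 of the 8 and the last in 2 of the 8. The last also missed the threshold without the filter on dim probe sets (limma adjusted p = 0.0646, in a range of 0.00149 to 0.186 over the fits tried).

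In the other 3 of the 7, the genotypes went opposite ways and each passed its own test. The clearest of these read 869 and 1020 in wax-stripped WT skin against 3130 and 3340 in unaffected WT recovery skin, a log2 fall of 1.76. In cKO mice it read 6360 and 5270 against 2550 and 2670, a log2 rise of 1.14. Wax-stripped WT arrays lay below and wax-stripped cKO arrays above all 4 unaffected ones. The difference of responses was 2.91 ± 0.17 (SE; limma adjusted p = 0.00305), and it was called in 8 of 8 fits that leave out 1 array. A further one read 366 and 367 after wax against 1040 and 1100 in WT, and 1470 and 1420 against 911 and 1070 in cKO mice (2.04 ± 0.14, SE; limma adjusted p = 0.00673). The third read 729 and 742 against 1320 and 1520 in WT, and 2500 and 2590 against 1340 and 1480 in cKO mice (1.78 ± 0.14, SE; limma adjusted p = 0.0139). The second of these 3 was called in 6 of the 8 fits and the third in 3 of the 8.

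All 7 were raised by at least 2-fold in injured imiquimod skin (2.44% of all tested rose so), by 1.27 to 7.96 on the log2 scale. In some, cKO arrays lay above WT arrays there too. For the difference of responses of 3.26, WT arrays read 1040 and 912 and cKO arrays 5180 and 4640. For 3.03 they read 305 and 369 against 923 and 1050. For 1.78 they read 3040 and 3230 against 9550 and 9020. For 5.9 the cKO pair was also higher, with WT replicate 2 far below the rest. For 4.8 and 2.91 the genotypes overlapped, and for 2.04 WT was higher. The genotype difference with imiquimod was not tested. The injured imiquimod arrays count in the filter on mean signal, so a dim probe set that is high there passes more easily. For the dimmest of the 7 the imiquimod rise is therefore partly built in. Of the count of 7, 3 were left without wax-stripped WT replicate 1 or without replicate 2, and 4 without unaffected cKO replicate 1. There were 11 without wax-stripped cKO replicate 1, 12 without replicate 2, 14 without unaffected cKO replicate 2 and 13 without unaffected WT replicate 2. In the last of these fits 7 of the 13 were smaller in cKO mice, and in each of the fits without a wax-stripped cKO array 1 was, so the single direction does not hold in these 3 fits. Nor did it hold in a fit over 16 arrays, without the injured recovery ones, which called 14 larger and 1 smaller in cKO mice.

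**Figure D3:**
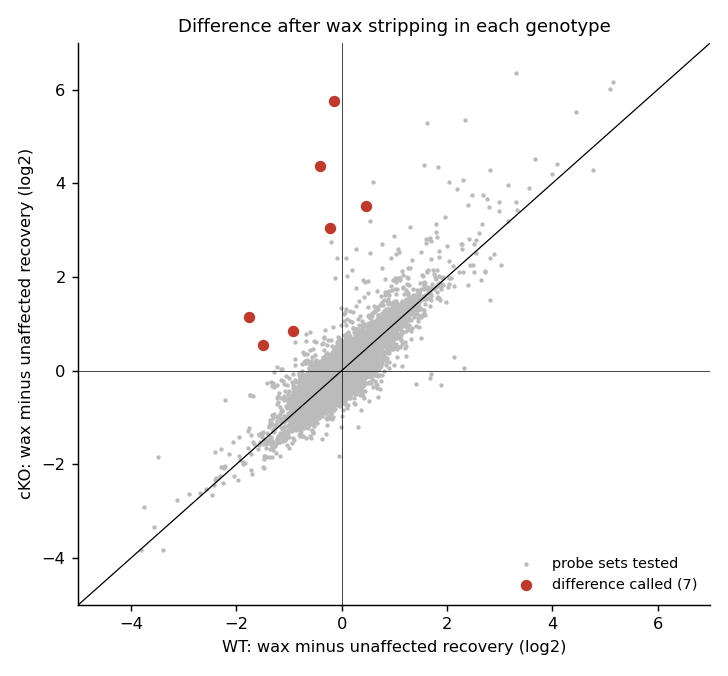
Log2 difference between wax-stripped and unaffected recovery skin in WT (horizontal) and cKO mice (vertical), 2 against 2 arrays each, for 26310 probe sets (grey); red marks the 7 called by the test of the difference, and the diagonal marks equal values. Of the 7, 4 lie near 0 in WT and high in cKO mice, and 3 lie below 0 in WT and above 0 in cKO mice.

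The imiquimod experiment, on arrays that the wax comparison does not use, showed which of the wax differences occur in immune-mediated injury too. Injured against unaffected imiquimod skin gave 11585 probe sets (44%), 641 (2.44%) higher and 1277 (4.85%) lower by at least 2-fold. Of the 443 raised after wax, 274 were raised by at least 2-fold with imiquimod. These are 61.9% of the wax list and 42.7% of the imiquimod list, against 2.44% of all tested. Another 59 (13.3%, against 18.6% of all tested) were raised by less than 2-fold, and 87 (19.6%, against 56%) did not pass the test. Lowered probe sets were 8 by less than 2-fold (1.81%, against 18.1%) and 15 by at least 2-fold (3.39%, against 4.85%). The probe sets lowered after wax were more one-sided: 180 of 209 were lowered by at least 2-fold with imiquimod, and 0 were raised. The 180 are 86.1% of the wax list but 14.1% of the imiquimod list, against 4.85% of all tested. Of the other 29, 21 were lowered by less than 2-fold (10% of the 209, against 18.1% of all tested). The remaining 8 did not pass (3.83%, against 56%).

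**Figure D4:**
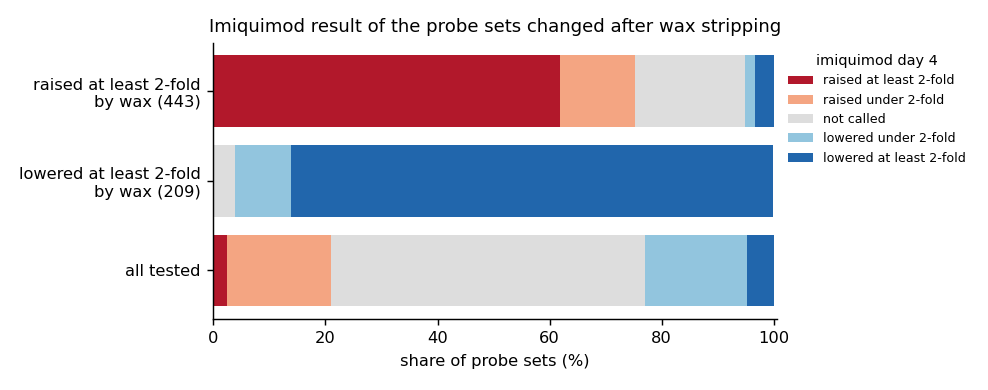
Share of probe sets (%) in each imiquimod class for those raised (443) and lowered (209) by at least 2-fold after wax and for all tested; dark red and dark blue are changes of at least 2-fold that limma called. Dark red fills 61.9% of the top bar and dark blue 86.1% of the middle bar, against 2.44% and 4.85% of all tested.

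The probe sets changed in both experiments had smaller median differences after wax than with imiquimod. The 274 raised in both had a median log2 change of 1.4 after wax and 1.65 with imiquimod. The direct test of wax minus imiquimod, which called 3492 probe sets (13.3%) with the higher and 2822 (10.7%) with the lower value after wax, found 85 of the 274 smaller and 2 larger after wax. The 180 lowered in both had medians of -1.29 and -1.87, with 68 called as lowered less and 7 as lowered more after wax. Labelled sex differs in this test as well. The median log2 difference of the 274 between wax-stripped and unaffected recovery skin was 1.54 in cKO and 1.25 in WT mice. The larger value was in cKO mice in 234 (85.4%, against 51.3% of all tested), and in 72% of all 443 raised. The 87 raised after wax but not called with imiquimod showed 44 (50.6%) with the larger value in cKO mice. That share was 40.4% in the 47 with little imiquimod change described below, and 20% in the 15 that imiquimod lowered by at least 2-fold. The probe sets lowered in both had a median of -1.41 in cKO and -1.25 in WT mice, with the lower value in cKO mice in 123 of 180 (68.3%, against 48.7% of all tested). The genotype shares of these lists were not tested against each other, and probe sets are not independent replicates of a genotype.

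A smaller class was raised after wax with little change from imiquimod. In 47 of the 443, imiquimod moved the value by under 1.2-fold and the direct test was passed with the higher value after wax. The one with the largest wax difference read 635 and 616 in WT and 578 and 244 in cKO wax-stripped skin, and 15 to 88.1 in unaffected recovery skin. Its log2 difference was 3.14 ± 0.26 (SE; limma adjusted p = 8.35e-05), and it read 24.8 to 161 in unaffected and 39.9 to 106 in injured imiquimod skin. Wax-stripped arrays alone were high here, and the direct test gave 3.03 ± 0.56 (SE; limma adjusted p = 0.00315).

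In 15 of the 443 (3.39%) the 2 injuries went opposite ways, raised by at least 2-fold after wax and lowered by at least 2-fold with imiquimod. That share lay below the 4.85% of all tested that imiquimod lowered so. The reverse held in 0 of the 209, against 2.44% of all tested that imiquimod raised so. The median log2 level of the 15 was 9.19 and 9.07 in wax-stripped WT skin and 8.77 and 9.71 in cKO skin. It was 6.59 to 7.99 in unaffected recovery skin, 7.88 to 8.26 in unaffected imiquimod skin and 6.51 to 6.88 in injured imiquimod skin. The probe set with the largest wax difference read 1040, 564, 190 and 1700 after wax, the 190 in cKO replicate 1, and 60.4 to 169 in unaffected recovery skin (2.42 ± 0.62, SE; limma adjusted p = 0.0136). Against unaffected imiquimod skin, at 195 to 776, the log2 difference was 0.58 and did not pass (limma adjusted p = 0.545). Across all probe sets the wax and imiquimod differences correlated at r = 0.606 (Spearman rho = 0.533), as a description over probe sets that are not independent.

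**Figure D5:**
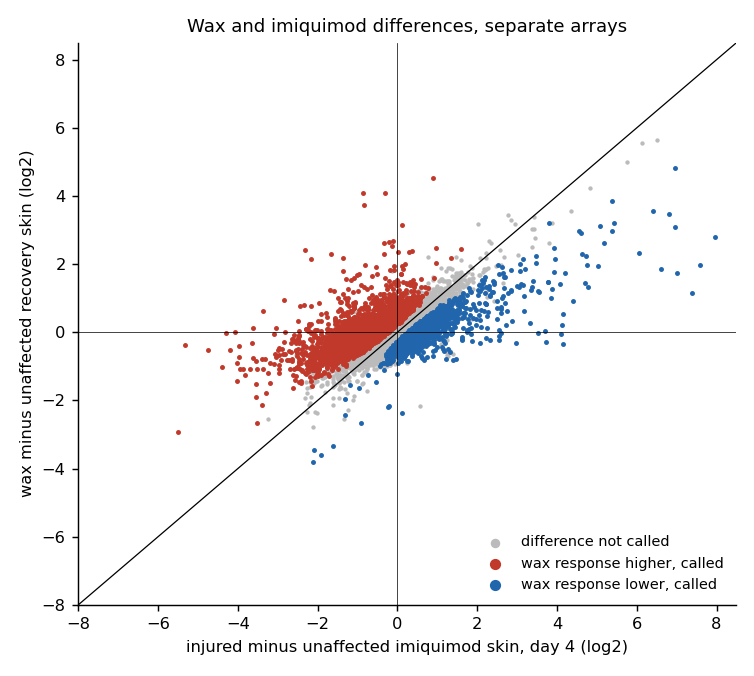
Log2 difference of injured and unaffected imiquimod skin on day 4 (horizontal) against that of wax-stripped and unaffected recovery skin (vertical) for 26310 probe sets from separate arrays; red and blue mark those the direct test called higher (3492) or lower (2822) after wax, and the diagonal marks equal values. Of the 274 raised in both, 85 are among the blue points and 2 among the red, and the red points above it include the 47 raised after wax that moved by under 1.2-fold with imiquimod.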

How the data were processed

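Per the labels' protocols, epidermal RNA was labelled with biotin and hybridised to Affymetrix Gene ST arrays. The deposited intensity values are linear and come from Expression Console with PLIER, a probe-level summary, per the submitters' processing notes. Versions and any normalization between arrays were not given in the sources used here. Of 35556 probe sets, 476 repeated another's values and were removed. Those with a mean log2 signal over all 20 arrays under the 25th percentile were left out (26310 tested). Comparisons used log2(value + 16), so fold changes of dim probe sets are understated, and limma 3.58.1 in R 4.3.3 (lmFit, eBayes, Benjamini-Hochberg, threshold 0.05). The main fit held the 8 arrays with genotype as a covariate; genotype responses used 4 group means on the same arrays; the direct test of wax against imiquimod used 16 arrays. The fits were tested on simulated data. The rule for named probe sets was the 2 largest rises and falls among calls without overlap, then the largest wax difference (or genotype difference) of each class. The 3 probe sets with opposite directions in the genotypes were chosen after their values were seen. Planned gene and marker lists were not run, since IDs did not pair with values. Members and lists were chosen with earlier results of these data known.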

Additional observations from a re-analysis of the deposited data

Results flagged for a closer look

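In the wax response, the genotypes differed in 7 probe sets by the test of the difference itself, with the largest at 5.9 on the log2 scale. In 3 other cases 1 array stood far from the rest of its 4 (by Dixon's test, which flags about 1 in 20 groups by chance). The fall 10382927 read 2180 in unaffected recovery WT replicate 1, above 1550 to 1590 in the others. The probe set raised after wax with an imiquimod change under 1.2-fold read 244 in wax-stripped cKO replicate 2, below 578 to 635. The probe set with the largest genotype difference read 13800 in injured imiquimod WT replicate 2, below 45400 to 49800. Over all probe sets tested, 5.22% of the wax-stripped and 5.45% of the unaffected recovery groups had such an array.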

How the results depend on the processing

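The total of 12414 stayed within 1.5 times under pseudocounts of 1 and 64, quantile normalization, no filter or a stricter one, other eBayes settings, all 20 arrays, no genotype covariate and 16 arrays without injured recovery skin (chosen after seeing the data). It became 7071 with unaffected imiquimod skin as the control, where 1 described log2 difference reversed to 0.78. The genotype difference of 7 became 16 with a pseudocount of 64, 13 with all 20 arrays and 15 with 16 arrays. The difference between unaffected skins became 8065 with all 20 arrays. Leaving out 1 array gave 9826 to 11066 for wax against unaffected recovery skin, 953 to 5410 in WT and 2962 to 5569 in cKO mice, 3 to 14 for the genotype difference, 9731 to 11513 for imiquimod, 4456 to 7339 for wax minus imiquimod and 1981 to 4023 between unaffected skins; such a fit has fewer arrays, and a lone array is assumed to vary like the other groups. The replicate block gave 12229 for the main comparison and 8 for the genotype difference; replicate numbers did not pair the arrays (r of -0.259 to 0.246 over 6 pairs of groups, 3 over 0.1). The cause of these shifts was otherwise not tested. Of 150 refits of the 8 described log2 differences, 140 kept direction and side of the threshold. Refits in which a probe set fell below the filter are not counted. Of the 8, the probe set with the largest genotype difference was not called in the main comparison (log2 difference 2.81, limma adjusted p = 0.0508). For it, keeping its side means staying uncalled, and the 8 refits that passed into a call were its own.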
